A study of Mus musculus with 23 samples.

Results

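The genes described here form the tissue factor and plasminogen activator system, measured in mouse embryonic stem (ES) cells given SRF-VP16. They were chosen by symbol, with earlier results of these arrays known: F3, Plaur, Plat, Plau and Thbs1, each through every probe set that the array's annotation pairs with it. F3, Plaur, Plat and Plau have 1 probe set each. Thbs1, which encodes the matrix glycoprotein thrombospondin 1, has none listed and was not analysed here. Thus 4 of the 5 named genes were measured, of 8131 genes with a probe set of their own, and all 4 probe sets passed the filter on dim probe sets that kept 9643.

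SRF-VP16 joins the transcription factor SRF to the VP16 activation domain, and total RNA was taken 72 hours after transfection. The -/- lines E81 and E100, the line E99 (+/-) and wild-type E14 cells each received the SRF-VP16 plasmid, the control plasmid SRFdM-VP16 or an empty vector. The vector arrays named E14-99+/- and the other arrays named E99-/+ were taken as 1 line, so each E99 value against vector rests on that reading. All 12 groups were thus transfected ES cells, with 2 arrays per group except 1 for E100 with vector, in all 23 arrays. The gene behind the genotype symbols and the share of cells that took up a plasmid were not given in the sources used here.

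Tissue factor, the product of F3, is a transmembrane receptor that binds coagulation factor VIIa and starts blood clotting outside the vessel. Urokinase, encoded by Plau, and tissue plasminogen activator, encoded by Plat, are serine proteases that turn plasminogen into plasmin, which digests fibrin and activates matrix proteases. The urokinase receptor, encoded by Plaur, is anchored in the membrane by a lipid tail and holds urokinase at the cell surface.

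F3 lies at chr3:121723537-121735052 of mouse build GRCm38.p6, Plaur at chr7:24460937-24475970, Plat at chr8:22757722-22782848 and Plau at chr14:20836662-20843388. RefSeq's table for that build held a promoter window for F3 and Plaur but not for Plat, Plau or Thbs1, so only those 2 are shown. Their motif matches could thus not be set beside those of the other members. Each line gives the 250 bases before an annotated transcript start on the + strand, 5′ to 3′, from chr3:121723287-121723536 for F3 and chr7:24462233-24462482 for Plaur. The Plaur window lies inside the annotated span of the gene. Capitals mark matches to TGANTCA, the element bound by Fos and Jun proteins (AP-1).
F3: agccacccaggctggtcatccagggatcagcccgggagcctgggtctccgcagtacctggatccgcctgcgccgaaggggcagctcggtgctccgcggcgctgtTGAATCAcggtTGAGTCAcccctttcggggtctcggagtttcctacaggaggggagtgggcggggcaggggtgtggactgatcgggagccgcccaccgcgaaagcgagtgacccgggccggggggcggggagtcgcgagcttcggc
Plaur: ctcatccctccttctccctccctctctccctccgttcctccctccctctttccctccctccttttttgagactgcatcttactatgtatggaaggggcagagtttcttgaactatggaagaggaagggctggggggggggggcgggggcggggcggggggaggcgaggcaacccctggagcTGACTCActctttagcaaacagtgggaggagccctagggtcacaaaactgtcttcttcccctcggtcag

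The F3 window held 2 AP-1 matches, at bases 146 to 140 and 135 to 129 before the start, and the Plaur window held 1, at bases 69 to 63. Over both strands, 6.75% of 32851 mouse windows of the same length held at least 1 such match and 0.338% held 2 or more. Both windows held 3 GC boxes (GGGCGG), of which 32.7% of windows held at least 1 and 16.7% held 2 or more. The Plaur window also held 1 Egr element (GCGNGGGCG), which overlaps GC boxes and was found at least once in 4.70% of windows. Neither window held TATAAA (12.4% of windows) or a CArG box, the motif that SRF binds (1.47% of windows). These are letter matches only, and binding was not measured.

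Intensities below are in the arbitrary linear units of the deposited table, in which values can be negative. A floor of 58 was set before taking log2, so a change against arrays below it depends on the floor. The genes were chosen with the SRF-VP16 arrays in view, so their changes under SRF-VP16 are given as a description, as log2 change ± SE, without a test. With bulk RNA, fewer cells expressing a gene and less RNA per cell cannot be told apart.

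F3, the initiator of coagulation, had intensities of 2849 and 10439 in E81 and 2705 and 6819 in E100 with SRF-VP16. With SRFdM-VP16 it had 1 and 56 in E81 and 102 and 201 in E100, and with vector 88 and 116 in E81 and 116 on the single E100 array. Every SRF-VP16 array of the -/- lines was thus above every control array of both kinds, as for 3.34% of probe sets, and both E81 SRFdM-VP16 arrays were below the floor. The 4 SRF-VP16 arrays of the -/- lines averaged 5703 ± 3688 (SD), the 4 SRFdM-VP16 arrays 90.0 ± 84.7 and the 3 vector arrays 107 ± 16.2. The fitted change against SRFdM-VP16 was 5.73 ± 0.86, a 53.1-fold difference in which 2 of the 4 control arrays stood at the floor. Against vector, where no array was below the floor, it was 5.48 ± 0.96, or 44.7-fold. The SRF-VP16 arrays are shared by both contrasts. With the floor raised to the 60th percentile of all values (301), the change against SRFdM-VP16 became 4.01.

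F3 was lower with SRF-VP16 in the lines that carry a wild-type allele than in the -/- lines. With SRF-VP16 it had 524 and 597 in E99 and 1599 and 373 in wild type. With SRFdM-VP16 it had 112 and 13 in E99 and 90 and 333 in wild type. The vector arrays gave 189 and 36 in E99 and 63 and 1282 in wild type. The lowest SRF-VP16 array of any line (373) was above the highest SRFdM-VP16 array (333), as for 0.0933% of probe sets, but wild-type vector array 2, at 1282, was above 3 of the 4 SRF-VP16 arrays of these lines. The change against SRFdM-VP16 was 2.79 ± 1.21 in E99 and 2.16 ± 1.21 in wild type, and 4.10 ± 0.61 over the 4 lines.

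Ordered by group mean, F3 fell into 3 steps. The lowest 7 groups, from 28.5 in E81 with SRFdM-VP16 to 211.5 in wild type with SRFdM-VP16, overlapped with their neighbours. E99 with SRF-VP16 (560.5 ± 51.6), wild type with vector (672.5 ± 862) and wild type with SRF-VP16 (986 ± 867) overlapped one another in turn, although wild-type vector array 1, at 63, lay among the lowest groups. E100 (4762 ± 2909) and E81 (6644 ± 5367) with SRF-VP16 stood above the rest and overlapped each other (SD, n = 2 each).

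Plaur, the urokinase receptor, was well above the floor on all 23 arrays. In the -/- lines with SRF-VP16 it had 2260 and 3801 in E81 and 5116 and 3546 in E100. With SRFdM-VP16 it had 301 and 702 in E81 and 1549 and 1131 in E100, and with vector 280 and 956 in E81 and 1177 in E100. The SRF-VP16 arrays were again above every control array, and E100 had the higher mean of the 2 lines with each plasmid. Means in the -/- lines were 3681 ± 1171 with SRF-VP16, 921 ± 539 with SRFdM-VP16 (SD, n = 4 each) and 804 ± 467 with vector (n = 3). The change was 2.18 ± 0.41 against SRFdM-VP16, or 4.53-fold, and 2.18 ± 0.45 against vector.

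In the other lines Plaur had 816 and 1256 in E99 and 1599 and 1096 in wild type with SRF-VP16. With SRFdM-VP16 it had 519 and 471 in E99 and 808 and 625 in wild type, and with vector 477 and 285 in E99 and 496 and 981 in wild type. Within each of these lines the SRF-VP16 arrays were above both control plasmids. They were above vector in 8.15% of probe sets in wild type and 17.5% in E99. They overlapped the E100 control arrays. The change against SRFdM-VP16 was 1.03 ± 0.58 in E99 and 0.90 ± 0.58 in wild type, and 1.57 ± 0.29 over the 4 lines. In the order of group means the only step between groups that did not overlap lay between wild type with SRF-VP16 (1347.5 ± 356) and E81 with SRF-VP16 (3030.5 ± 1090), below E100 with SRF-VP16 (4331 ± 1110; SD, n = 2 each).

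**Figure D1:**
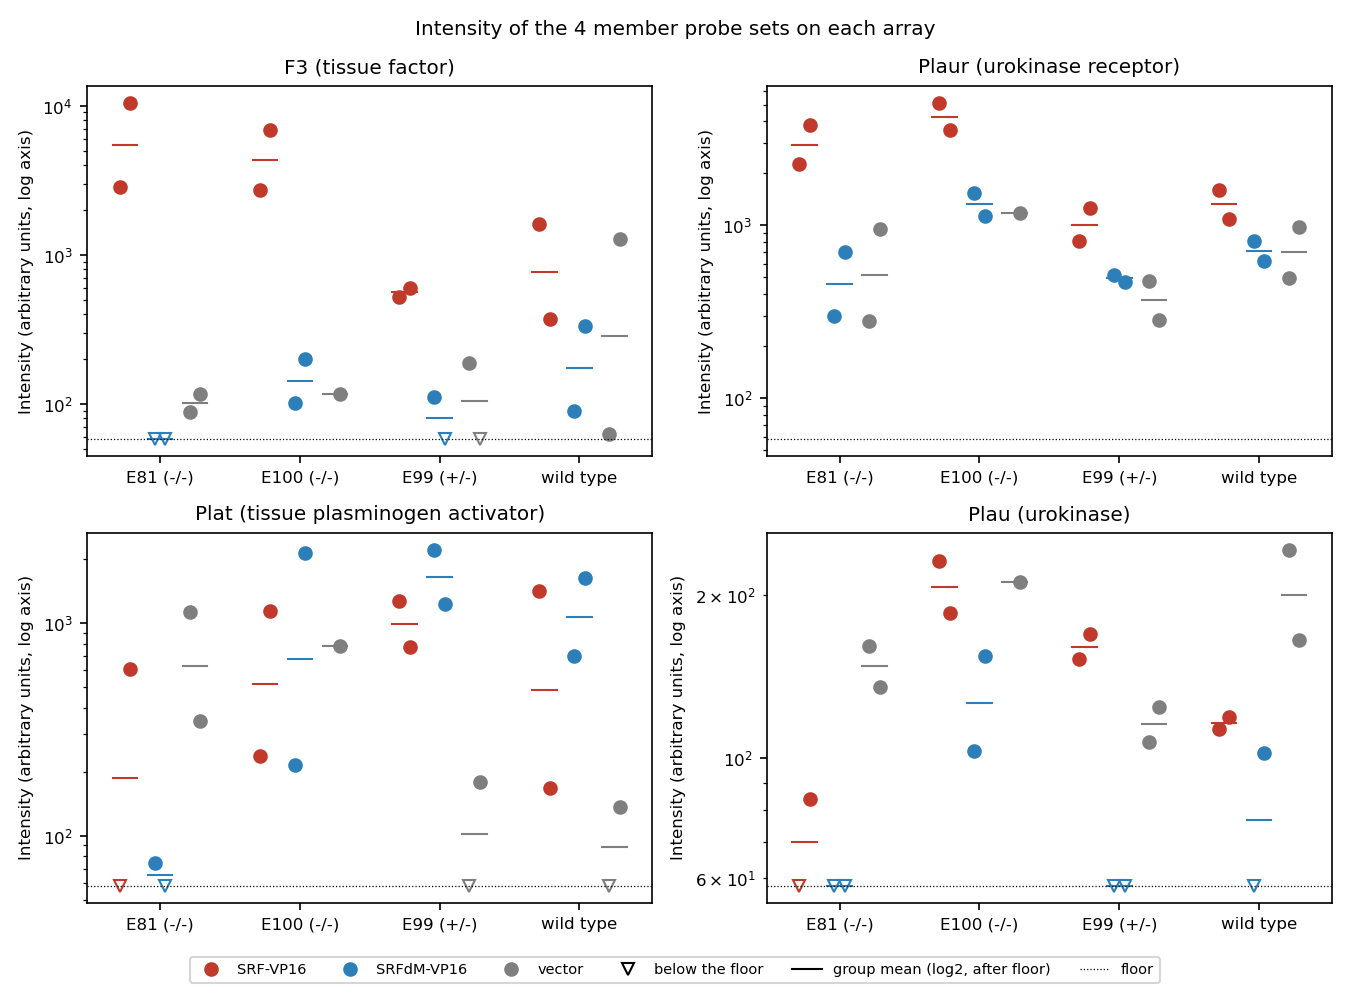
Intensity of F3, Plaur, Plat and Plau on each of the 23 arrays (log axes), by line and plasmid, with the group mean of log2 values as a bar and arrays below the floor of 58 as open triangles. F3 and Plaur stand highest in the 4 SRF-VP16 arrays of E81 and E100. Plat has no order of plasmids shared by the lines. Plau is lowest with SRFdM-VP16 within each line before the floor is applied, with 5 of those arrays below the floor.

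Plat, the tissue plasminogen activator, varied widely between the arrays of a group. With SRF-VP16 it had 18 and 607 in E81, 236 and 1138 in E100, 1269 and 773 in E99, and 1413 and 167 in wild type. With SRFdM-VP16 it had 74 and -75 in E81, 214 and 2139 in E100, 2213 and 1226 in E99, and 699 and 1630 in wild type. With vector it had 1129 and 345 in E81, 782 in E100, -150 and 178 in E99, and -245.6 and 136 in wild type. In the order of its 12 group means, from -54.8 in wild type with vector to 1719.5 in E99 with SRFdM-VP16, every group overlapped the next. The SD of Plat between arrays of a group, 1.46 on the log2 scale, was above that of 98.8% of the probe sets, and that of F3, 1.30, was above 97.8%. For Plaur it was 0.60, above 65.1%, and for Plau 0.29, above 17.0%. These SDs were taken after the floor, which removes the spread among arrays below it, as on 6 arrays for Plau. The Plau SD and SEs thus hold less than the full spread.

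Plat was not higher with SRF-VP16 than with SRFdM-VP16 in a way that the lines shared. The change was 0.57 ± 0.96 in the -/- lines, -0.73 ± 1.35 in E99, -1.14 ± 1.35 in wild type and -0.18 ± 0.68 over all lines. Against vector the -/- lines gave -1.16 ± 1.07, whereas E99 gave 3.29 ± 1.35 and wild type 2.45 ± 1.35. In these 2 lines both plasmids that encode a VP16 fusion were above vector: SRFdM-VP16 against vector gave 4.02 in E99 and 3.59 in wild type, and -1.73 in the -/- lines. The SRFdM-VP16 arrays were all above the vector arrays in E99 and wild type, as for 12.1% and 4.78% of probe sets. The SRF-VP16 arrays were too, as for 17.5% and 8.15%.

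Plau, the urokinase gene, was dim, and none of its 23 values was above 242.2. With SRF-VP16 it had 16 and 84 in E81, 231 and 185 in E100, 152 and 169 in E99, and 113 and 119 in wild type. With SRFdM-VP16 it had -70 and -35 in E81, 103 and 154 in E100, 27 and 55 in E99, and -59 and 102 in wild type. With vector it had 161 and 135 in E81, 211 in E100, 107 and 124 in E99, and 242.2 and 165 in wild type. Plau was below the floor on 6 arrays, 5 of them with SRFdM-VP16. Within each line, both SRFdM-VP16 arrays lay below every SRF-VP16 and vector array, before the floor was applied. They lay below vector for 34.2% of probe sets in wild type and 25.7% in E99, and below SRF-VP16 for 16.7% and 29.5%. The share in E81 or E100 alone was not computed. The order of the Plau group means ran from -52.5 in E81 with SRFdM-VP16 to 211 in E100 with vector. It had 1 step between groups that did not overlap, above E81 with SRF-VP16.

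The direction for Plau depended on the control plasmid. Against SRFdM-VP16 the change was 0.49 ± 0.23 in the -/- lines, 1.47 ± 0.33 in E99, 0.59 ± 0.33 in wild type and 0.76 ± 0.17 over all lines. Against vector it was -0.55 ± 0.26 in the -/- lines, 0.48 ± 0.33 in E99, -0.79 ± 0.33 in wild type and -0.35 ± 0.18 for the 4 lines together. With SRFdM-VP16 set against vector, Plau gave -1.11 ± 0.18. The Plau values moved with the dim end of the arrays: of the 7 arrays with 34.0% to 43.6% of values at or below 0, Plau was below the floor on 6, against 0 of the 16 arrays with 23.4% to 26.9%. Of those 7 arrays 2 carried SRF-VP16, 5 SRFdM-VP16 and 0 vector. F3 was below the floor on 3 of the 7 and 1 of the 16 and Plat on 2 and 2, and Plaur on none. The part of this in the Plau values was not tested.

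The contrast of SRF-VP16 with SRFdM-VP16 called 2.82% of all probe sets in the -/- lines at a limma adjusted p of 0.05, 2.48% as higher (239) and the other 33 as lower, and F3 and Plaur were among those higher. After quantile normalization 238 of 349 calls were higher. Over all lines 1.96% were called, among them F3, Plaur and Plau, and with vector as the control 1.69%, among them F3 and Plaur but not Plau. In wild type 0.0207% and in E99 0.0415% were called, and 0 of the 4 members. Arrays that did not overlap were common where groups were small: SRF-VP16 was above SRFdM-VP16 on every array for 4.93% of probe sets in the -/- lines, 16.7% in wild type and 29.5% in E99. In the -/- lines these included F3 and Plaur, and in wild type and E99 also Plau. Over all lines 9 probe sets had no overlap, and F3 was 1 of them. Since the members were chosen with this contrast known, nothing is read from these counts.

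Between the 2 control plasmids, SRFdM-VP16 against vector gave -0.40 ± 0.64 for F3 and 0.11 ± 0.31 for Plaur over all lines. It gave 1.04 ± 0.72 for Plat and -1.11 ± 0.18 for Plau. The Plat value averages 4.02 in E99 and 3.59 in wild type with -1.73 in the -/- lines. F3 was below the floor on 3 SRFdM-VP16 arrays and 1 vector array, so its value depends on the floor.

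**Figure D2:**
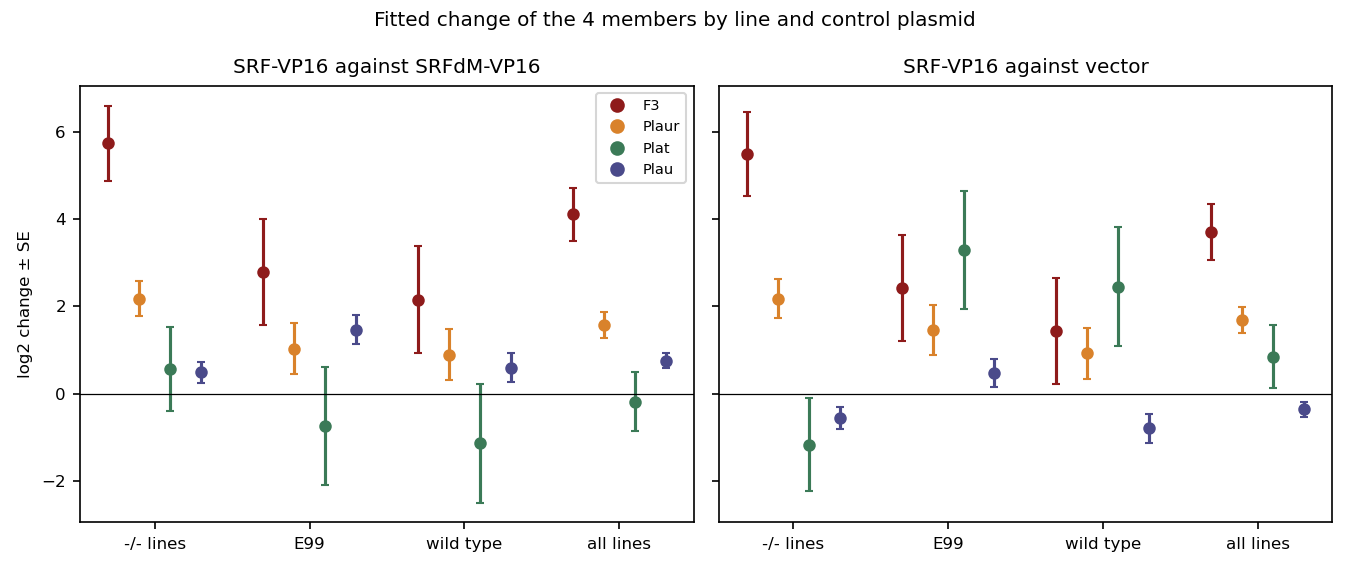
Log2 change ± SE of the 4 genes for SRF-VP16 against SRFdM-VP16 (left) and against vector (right), by line and over all lines, from 1 fit to all 23 arrays. F3 and Plaur lie above 0 in every line with both controls, whereas Plat and Plau lie on both sides of 0.

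The F3 and Plaur changes were larger in the -/- lines than in wild type, by 3.57 ± 1.49 for F3 and 1.28 ± 0.70 for Plaur on the log2 scale. For Plat the difference in effect was 1.70 ± 1.66 and for Plau -0.10 ± 0.41. No member was among the 0.083% of probe sets called for this difference. All 4 SRF-VP16 arrays of the -/- lines were above all 4 of wild type and E99 for F3 and for Plaur, as for 5.23% of probe sets. Within the -/- lines the change of F3 against SRFdM-VP16 was 6.55 ± 1.21 in E81, where both control arrays were set to the floor, and 4.91 ± 1.21 in E100. The E81 value was 4.18 with the higher floor and 5.62 to 7.49 when single arrays were left out. For Plaur the change was 2.67 ± 0.58 in E81 and 1.69 ± 0.58 in E100. The E81 value was 2.06 without SRFdM-VP16 array 1 and 3.28 without SRFdM-VP16 array 2. Some of the arrays behind these values stood apart. The E81 SRFdM-VP16 array numbered 1 had the most values at or below 0 (43.6%) and the lowest Gapdh 5′ to 3′ signal ratio, a sign of RNA quality (log2 -0.99, against -0.38 to 0.42 on the other arrays). Without it the change in the -/- lines was 1.87 for Plaur. For F3 it stayed at 5.73, but both E81 SRFdM-VP16 arrays were set to the floor. Leaving out 1 of them could therefore not move the F3 value. Both wild-type control arrays numbered 2 had more F3 than their duplicates (333 and 1282 against 90 and 63), and without both of them the wild-type change was 3.10 for F3 and 0.71 for Plaur. Leaving out single arrays gave 1.11 to 3.21 for F3 in wild type and 2.52 to 4.62 for its difference in effect between -/- and wild type. Against vector the wild-type change of F3 was 1.44, and it was -0.73 without vector array 1 and 3.62 without vector array 2.

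**Figure D3:**
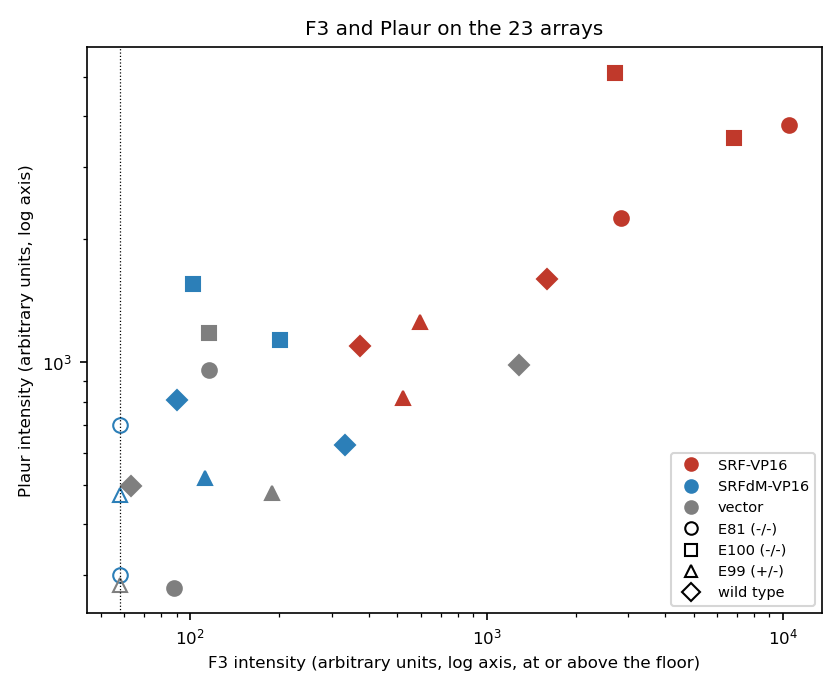
Plaur against F3 intensity on the 23 arrays (log axes), with colour for the plasmid and shape for the line, and with F3 values below the floor of 58 set to it and drawn open. The 4 SRF-VP16 arrays of E81 and E100 lie at the upper right, at 2705 or more for F3 and 2260 or more for Plaur.

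The 4 genes were compared between lines on the vector arrays, which enter no contrast of SRF-VP16 with SRFdM-VP16. The genes were chosen with earlier results of these arrays known, so the p-values are not free of that choice. Wild type and E99 are 1 line each, so genotype and other differences between lines cannot be told apart. In limma, 0 of the 4 genes passed in the -/- lines against wild type, where 0.228% of all probe sets were called, and 0 of 4 passed in E99 against wild type, where 0.166% were called, with 1 of the 4 at an unadjusted p under 0.05 in each. Plat was above both wild-type arrays on all 3 -/- arrays, as were 7.75% of probe sets, with a change of 2.98 ± 1.27 (95% interval 0.25 to 5.70, unadjusted p = 0.035, adjusted p = 0.96). F3 gave -1.39 ± 1.13 (interval -3.84 to 1.05), but without wild-type vector array 2 it gave 0.78. Plaur gave 0.16 ± 0.54 (interval -0.998 to 1.32) and Plau -0.18 ± 0.31 (interval -0.85 to 0.49). In E99, Plau had both arrays below both wild-type arrays, as did 26.1% of probe sets, with -0.80 ± 0.33 (interval -1.51 to -0.08, unadjusted p = 0.031, adjusted p = 0.93). Plaur gave -0.92 ± 0.58, Plat 0.19 ± 1.35 and F3 -1.44 ± 1.21 in E99, and F3 gave 0.73 without wild-type vector array 2. The labels do not say whether duplicates were separate cultures, so a p-value here measures no more than how far these duplicates differed.

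Other genes of clotting and of proteolysis at the cell surface were taken from 4 lists of 94 genes, of which 77 were annotated on the array and 56 were tested. In every contrast the SE and p-value rest on the spread between duplicates within groups. For the -/- lines they hold no spread between E81 and E100, so they do not extend to other -/- lines. In the -/- lines with SRF-VP16 against SRFdM-VP16, 3 of the 56 rose and 0 fell, where 2.48% of all probe sets were called higher. Over all lines 2 rose and 0 fell, where 1.79% were called higher. At an unadjusted p under 0.05 there were 13 of the 56 in the -/- lines and 16 over all lines, against 1294 of 9643 probe sets in each. Their median change was 0.25 in the -/- lines, against 0.04 over all probe sets tested, and 0.25 over all lines, against 0.08. The 3 that rose were Anxa2, Timp1 and Itgb1, 1 in each list other than coagulation. In limma 0 of 56 passed in wild type, in E99, in either vector comparison or for the difference in effect between -/- and wild type. At an unadjusted p under 0.05 there were 3 of the 56 in wild type, 4 in E99, 2 for -/- and 1 for E99 against wild type with vector, and 6 for the difference in effect. Of the 9643 probe sets there were 346 in wild type, 432 in E99, 459 and 506 in the vector comparisons and 513 for the difference in effect, which called 0.083% of all probe sets.

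Anxa2 encodes annexin A2, a membrane-binding protein that docks plasminogen and tissue plasminogen activator at the cell surface. With SRF-VP16 it had 17897 and 12997 in E81 and 24697 and 11259 in E100, against -533 and 373 and 1239 and 723 with SRFdM-VP16. The lowest of these SRF-VP16 arrays was thus at 11259 and the highest SRFdM-VP16 array at 1239. The change was 5.42 ± 0.81 in the -/- lines (adjusted p = 0.0025) and 3.59 ± 0.57 over all lines (adjusted p = 0.0057). Without E81 SRFdM-VP16 array 1, the array below the floor, it was 4.75, and without array 2 of that group 6.09. In wild type Anxa2 had 9854 and 7089 with SRF-VP16, with a change of 1.49 ± 1.14 (adjusted p = 1), and control array 2 was the higher of its pair with SRFdM-VP16 (6787 and 1302) and with vector (8627 and 532.3). S100a10, whose protein binds annexin A2 and plasminogen, gave 0.75 ± 0.31 in the -/- lines (adjusted p = 0.30).

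Of the 11 plasminogen system genes tested, Anxa2 rose and the other 10 did not pass. Plasminogen itself (Plg) gave 0.70 in the -/- lines (adjusted p = 0.47), Serpini1, a serpin that inhibits tissue plasminogen activator, -0.99 (adjusted p = 0.33) and Lrp1, a receptor that clears plasminogen activators bound to inhibitors, 0.21 (adjusted p = 0.74).

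Of the 21 coagulation genes tested, 0 passed in limma and 2 had an unadjusted p under 0.05 in the -/- lines, with a median change of 0.00. In E81 alone 1 of the 21 was called higher, where 0.944% of all probe sets were, and in E100 alone 0, where 0.757% were. Tfpi, whose product inhibits tissue factor bound to factor VIIa, averaged 1368 ± 1128 with SRF-VP16 and 598 ± 560.1 with SRFdM-VP16 in these lines (SD, n = 4 each), and its arrays overlapped. Its change was 1.33 ± 0.56 (adjusted p = 0.31). Kng1, for kininogen, gave 1.20 ± 0.34 (adjusted p = 0.094), with both E81 SRFdM-VP16 arrays below the floor. Procr, the endothelial protein C receptor, gave 0.61 (adjusted p = 0.56), F2rl2, a receptor cleaved by thrombin, 0.66 (adjusted p = 0.62), and the platelet glycoprotein Gp9 0.91 (adjusted p = 0.42). Serpina10, a serpin that inhibits factor Xa, gave -1.34 (adjusted p = 0.49).

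Of the 13 matrix protease and growth factor genes tested, Timp1, an inhibitor of matrix metalloproteases, rose. With SRF-VP16 it had 6738 and 8030 in E81 and 15174 and 6355 in E100, against 2869 and 2383 and 2838 and 2719 with SRFdM-VP16. In E99 it had 3414 and 3122 with SRF-VP16 and in wild type 4141 and 2621. Its controls in all lines lay between 2383 and 3476, and all 4 SRF-VP16 arrays of the -/- lines were above them. The change was 1.66 ± 0.23 in the -/- lines (adjusted p = 0.0017) and 0.96 ± 0.17 over all lines (adjusted p = 0.0089). In the -/- lines Timp1 was not called in E81 alone or in a fit of the arrays of the comparison only. Of those that did not pass in the -/- lines, the metalloelastase gene Mmp12 gave 1.41 (adjusted p = 0.26) and by another probe set 0.24. Furin, a protease that activates precursors, gave 0.86 (adjusted p = 0.20), Timp2, another metalloprotease inhibitor, 0.62 (adjusted p = 0.76) and Ltbp1, which binds latent TGF-beta, 0.48 (adjusted p = 0.47).

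Of the 11 genes of the thrombospondin family and its receptors, the integrin beta 1 gene Itgb1 rose in the -/- lines. It had 12196 and 15056 in E81 and 14329 and 11588 in E100 with SRF-VP16, against 7757 and 6134 and 8133 and 6975 with SRFdM-VP16, with no overlap. The change was 0.87 ± 0.19 (adjusted p = 0.022) by the brighter probe set, which the array's naming marks as shared by similar sequences, and 1.02 (adjusted p = 0.14) by another. Over all lines it was 0.44 (adjusted p = 0.13), and in the -/- lines 8 of 21 alternative settings did not call it. The integrin chains Itga3 and Itgav gave 1.50 (adjusted p = 0.073) and 1.30 (adjusted p = 0.20) in the -/- lines. Other probe sets of Itgav gave 1.60 (adjusted p = 0.11) and 0.10 (adjusted p = 0.66). Itgb5 gave 0.18 (adjusted p = 0.99). Thbs2, which encodes thrombospondin 2, gave -0.67 (adjusted p = 0.26).

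**Figure D4:**
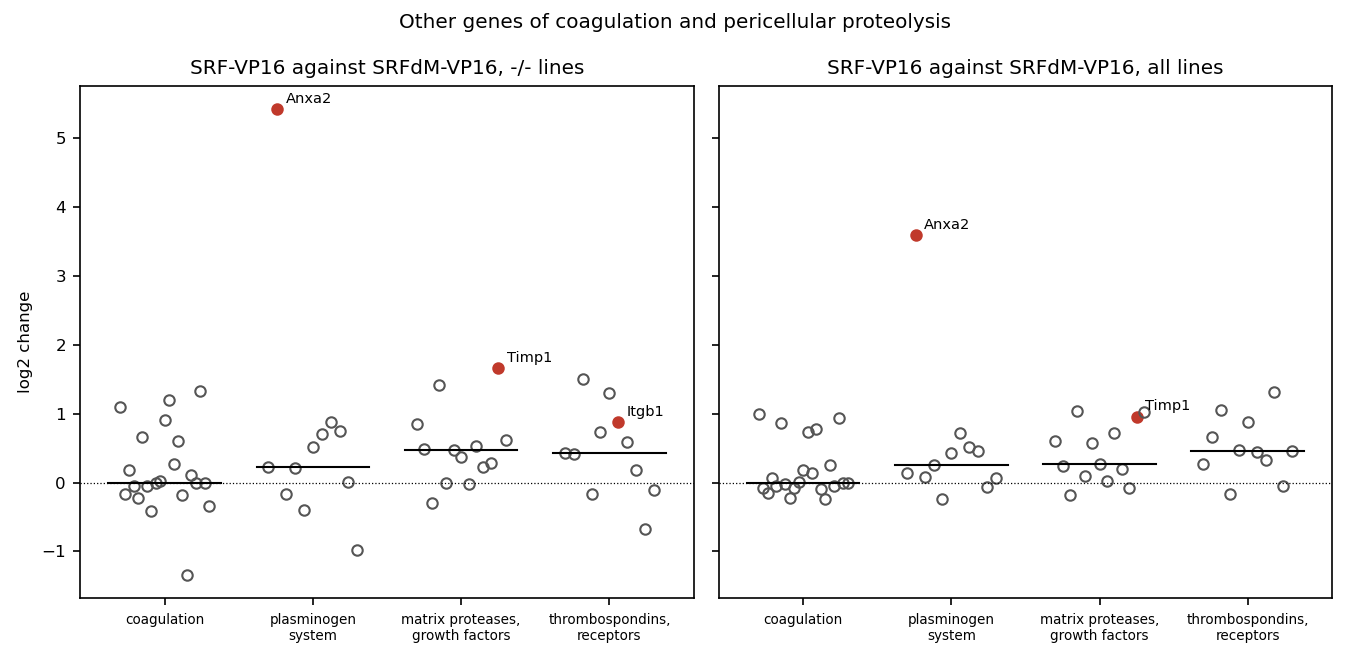
Log2 change with SRF-VP16 against SRFdM-VP16 of the 56 other genes tested, by list, in the -/- lines (left) and over all lines (right), with the list median as a bar and genes past the limma threshold filled. Anxa2, at 5.42 and 3.59, stands above all others in both panels.

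The genes whose levels followed each member most closely were found by Pearson correlation over the 12 group means of log2 intensity, among 6767 genes. The groups share plasmids and lines, so these values describe the pattern and have no test. For F3 the closest were Dsp (0.99), Csrp1 (0.99), Rhou (0.98), Hcfc1r1 (0.98) and Nr2f6 (0.98). Dsp, for the desmosome protein desmoplakin, averaged 5170 in the SRF-VP16 arrays of the -/- lines, 597 with SRFdM-VP16 there and 1464 with SRF-VP16 in wild type and E99. Csrp1, for an actin-associated LIM protein, averaged 11740 in the SRF-VP16 arrays of the -/- lines, 299.8 with SRFdM-VP16 there and 2258 with SRF-VP16 in wild type and E99. For Plaur they were Sparc (0.97), Tapbp (0.97), Col4a2 (0.97), Furin (0.96) and Zfp703 (0.95). Sparc, for a secreted matrix protein, averaged 7228 in the SRF-VP16 arrays of the -/- lines, 2056 with SRFdM-VP16 there and 3152 with SRF-VP16 in wild type and E99. For Plat they were Anapc13 (0.81), Entpd2 (0.79), Prcc (0.78), Cel (0.77) and Ucp3 (0.75). For Plau they were Iglc1 (0.98), Hccs (0.95), Rwdd4a (0.95), Cd47 (0.95) and St6galnac4 (0.94), each below the floor on 4 to 9 arrays, as Plau was on 6. Between the members, F3 and Plaur gave 0.88, and the other 5 pairs lay between -0.01 and 0.31.

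Marker genes were set beside these results. All 10 ES cell markers were annotated, and their summed intensity was 37672 to 63264 in the 4 SRF-VP16 arrays of the -/- lines, 53709 to 104518 with SRFdM-VP16 and 76803 to 104647 with vector. Of the 10, Fgf4, an ES cell growth factor, fell in the -/- lines, by 1.15 (adjusted p = 0.012), and 9 had a change below 0. At an unadjusted p under 0.05 there were 4, Fgf4, Tdgf1 (-0.92), Klf4 (-0.73) and Pou5f1 (-0.60). Over all lines there were also 4, Sox2 (-0.61), Tdgf1 (-0.69), Fgf4 (-0.62) and Pou5f1 (-0.45). There 0 passed in limma, with Fgf4 at an adjusted p of 0.063. The 9 primitive endoderm markers summed to 7122 to 13175 with SRF-VP16, against 2726 to 6165 with SRFdM-VP16 and 2074 to 5295 with vector. Most of these sums was Sparc, which averaged 7228 with SRF-VP16 and 2056 with SRFdM-VP16, against median sums of 8017 and 3454. Of the 9 markers 7 were tested, and 0 passed in limma. An unadjusted p under 0.05 was found for 3, Sparc with 2.11 (adjusted p = 0.051), Gata6 with 1.06 (adjusted p = 0.22) and Gata4 with -0.79 (adjusted p = 0.31). Dab2 gave -0.63 and Lamb1 0.39. Sox17 (0.19) and Afp (0.21) were below the floor on 19 and 21 arrays. Foxa2 and Ttr were below the floor on all 23 arrays. The fibroblast, endothelial, macrophage and platelet lists had 0 of 14 markers past the threshold or with an unadjusted p under 0.05 in the -/- lines. Over all lines 0 passed, and 4 had an unadjusted p under 0.05, the macrophage markers Fcgr3 (0.80), Cd68 (1.02) and Csf1r (-0.61) and the endothelial marker Kdr (0.86). Fibroblast markers summed to 220 to 518 with SRF-VP16 and 186 to 416 with SRFdM-VP16, endothelial markers to 3207 to 6213 and 2001 to 8144, macrophage markers to 2490 to 5012 and 2082 to 3340, and platelet markers to 37 to 148 and 0 to 82. Their part in the F3 and Plaur values was not tested.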

How the data were processed

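Total RNA of 23 samples was hybridised to 1 array each. The values deposited by the authors are linear intensities, 1 for each probe set on each array. How they were background-corrected and scaled, and with which software, is not given in the sources used here. Array medians ran from 54 to 209, and 29.1% of values were 0 or negative. The number of arrays limits the precision. Probe sets were named by the platform annotation, with symbols checked against RefSeq (GRCm38.p6). No pair of arrays shared more than 0.515% of its values.

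Of 12502 probe sets, 66 controls were removed. The 9643 kept were above the 40th percentile of an array in at least 2 arrays. Values were used as deposited, set to at least 58 (the 40th percentile of all values), put on the log2 scale and fitted with limma 3.58.1 in R 4.3.3. The fit had 1 mean per group, 11 residual degrees of freedom shared by all groups and a trend of the variance with intensity. Adjustment was by Benjamini-Hochberg over all probe sets, at 5%. Tests were two-sided, and the procedure was tested on simulated data.

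The members, lists and comparisons were chosen with earlier results of these data known. Named genes were every member probe set, list genes called in any comparison, up to 4 per list with the smallest adjusted p in the -/- and the all-lines comparison, and the 5 genes most correlated with each member. A gene with several probe sets is given by the brightest. Alternatives were other floors, scalings, filters, variance models and controls, a replicate block, each -/- line alone and leaving out arrays. Leaving out both wild-type control arrays numbered 2 was added after seeing the data.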

Additional observations from a re-analysis of the deposited data

Results flagged for a closer look

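Of 28 groups of arrays searched for a value standing apart from the rest, 3 held one. The cut-off has a rate of about 1 in 20 only for independent groups drawn from 1 normal distribution. These groups overlapped, mixed lines and included genes picked for their calls, so 3 of 28 is not read against that rate. In the 4 SRFdM-VP16 arrays of the -/- lines, Plat was 2139 on E100 array 2, and the next highest value was 214. Among the 8 SRFdM-VP16 arrays, Anxa2 was 6787 on wild-type array 2, and the next highest was 1302. Among the 8 SRF-VP16 arrays, Timp1 was 15174 on E100 array 1, and the next highest was 8030.

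For 2 genes every array moved one way in one line and the opposite way in another, and the difference was not tested. How many probe sets did so was not computed. Separation within a single line was common with 2 arrays per group. SRFdM-VP16 was above vector for 4.78% of probe sets in wild type and 12.1% in E99. SRF-VP16 was above vector for 17.5% in E99 and below it for 26.6% in wild type. For Plat, SRFdM-VP16 was above vector in wild type and E99 and below it in E81, and the effect in wild type exceeded that in E81 by 6.84 and the effect in E99 exceeded that in E81 by 7.27 on the log2 scale. For Plau, SRF-VP16 was above vector in E99 and below it in wild type and E81, and the effect in E99 exceeded that in wild type by 1.26 and that in E81 by 1.56.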

How the results depend on the processing

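Over 21 alternatives in the -/- lines the change stayed above 0 for F3 (4.01 to 6.55) and Plaur (1.69 to 2.67). Over all lines they ran from 2.55 to 4.37 for F3 and from 1.42 to 1.73 for Plaur over 28 alternatives, and Plau gave -0.35 with vector as the control. The genes were chosen with this contrast known, so the calls support nothing: F3 was not among those called in E100 alone, nor Plaur there or in a fit of the arrays of the comparison only, nor Plau over all lines under 16 of 27 alternatives. Anxa2 was not called in E100 alone. The change ran from -1.16 to 1.52 for Plat and from -0.55 to 1.43 for Plau in the -/- lines. In the vector comparison of -/- with wild type, leaving out single arrays gave -0.43 to 0.65 for Plaur, -3.57 to 0.78 for F3 and -0.46 to 0.10 for Plau. In E99 against wild type it gave -0.61 to 1.00 for Plat and -3.61 to 0.73 for F3. Without both wild-type control arrays numbered 2, F3 gave 0.78 and 0.73 in these comparisons. Of the listed pathway genes, 1 was called in E100 alone and 2 to 5 without single arrays in the -/- lines, 5 of them without E81 SRFdM-VP16 array 2 or without E100 SRF-VP16 array 2. Over all lines it was 2 to 5 without single arrays and 4 without both wild-type control arrays numbered 2. In E99 it was 0 to 1 without single arrays. With vector, -/- against wild type gave 1 with the floor at the 60th percentile, and E99 against wild type gave 0 to 1 without single arrays and 1 without both wild-type control arrays numbered 2. For the difference in effect it was 1 in a fit of the arrays of the comparison only and 0 to 2 without single arrays. No label says that replicate numbers pair the samples. Deviations of same-numbered arrays of a line correlated from -0.35 to 0.42 over the 4 lines (10 pairs) and from 0.25 to 0.31 within the -/- lines (4 pairs), where F3 was higher on array 2 of every pair. The replicate block left 3 pathway genes called in the -/- lines and 2 over all lines, with 266 and 186 probe sets called in all. It changed no call of a pathway gene named here. Over all alternatives the probe sets called ran from 97 to 514 in the -/- lines (272 as reported, 514 without E81 SRFdM-VP16 array 2), 108 to 432 over all lines (189), 0 to 35 in wild type (2), 0 to 23 in E99 (4), 0 to 132 and 0 to 50 in the vector comparisons (22 and 16) and 3 to 41 for the difference in effect (8). Division by the array median moved the median of all probe sets to 0.40 in E99 and 0.26 in wild type, against 0.11 and 0.04 as deposited, and F3 then gave 3.01 and 2.40 and Plaur 1.37 and 1.14. The causes were not tested. Values near the floor, as for Plau and the F3 controls, are limited by background.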
